A study of Danio rerio with 8 samples.

Results

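Cytosolic ribosomal protein genes, which encode the protein parts of the ribosomes that translate messenger RNA outside mitochondria, were followed in zebrafish hindbrains with and without an activated Fgf receptor. They were chosen by name. A row was a member when its symbol, case ignored, began with rpl, rps or rplp followed by a digit, and the rps6k kinase genes were left out. The rule found 84 of the 32189 rows, of which 37 were named for the small subunit, 43 for the large subunit and 4 for the P stalk, a flexible arm of the large subunit. Names ending in l, l1 or bp1 (such as RPL22L1, RPL7L1, RPL36AL, rplp2l, rps27l and rps19bp1) were carried by 7 members. Such a name points to a relative or a binding partner of a ribosomal protein, which was not checked by sequence. Enough counts to be tested were found for 83 members. The name rpsa, which the rule would also take, matched no row. Symbols are printed as the name table gives them, in capitals for 71 of the 84 members, and where a symbol belongs to a pair of IDs the ID is given.

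A ribosome is built from ribosomal RNA and about the same amount of each ribosomal protein, and growing tissue spends much of its messenger RNA on these proteins. Vertebrate ribosomal protein messages share a pyrimidine-rich start through which the mTOR kinase controls their translation, so their messenger RNA level and their translation can change separately. Loss of single ribosomal proteins impairs blood formation in zebrafish and people.

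The libraries were 4 ca_fgfr1 and 4 control samples, each made from 1 dissected hindbrain with the tissue around it. The ca_fgfr1 embryos carried Tg(hsp70:ca-fgfr1), in which the heat-inducible hsp70 promoter drives a constitutively active Fgfr1, a receptor for Fgf growth factors, in any cell that responds to heat. They were heterozygotes from outcrosses. Control embryos were labelled wt within the same strain, came from the same heat-shocked clutches according to the study's methods, and were told apart by qPCR after RNA extraction. All embryos grew at 28.5°C. At 22 hpf (hours post-fertilisation) they were warmed to 38.5°C, for 30 min, and after 2 h back at 28.5°C the tissue was taken, at 24 to 25 hpf. Heat shock was therefore shared by all libraries, and heat shock alone was not compared with its absence.

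Total counts were 15327169 to 20541155 in ca_fgfr1 and 13173019 to 17980114 in control libraries. No pair of libraries within a group agreed within sampling noise (lowest chi-square per degree of freedom 23.8). Control replicate 1 had the lowest total, the fewest genes detected (21708, against 22784 to 23702 in the other libraries) and the lowest scaling factor (0.811, against 0.940 to 1.15). As a check of the labels, SPRY2, an Fgf-induced inhibitor of Fgf signalling, had 167, 160.1, 219 and 285 CPM in ca_fgfr1 replicates 1 to 4, against 50.3, 69.9, 62.6 and 61.3 CPM in control replicates 1 to 4. All ca_fgfr1 libraries lay above all controls (log2 fold change 1.77 ± 0.25 SE, edgeR adjusted p = 0.041). Of 10 Fgf response genes tested, all 10 had a log2 fold change above 0, and 6 had an unadjusted edgeR p under 0.05 (2.14% of all genes were higher at that p). Only SPRY2 reached an adjusted p of 0.05 or less. The log2 fold change was 0.04 for etv5a and 0.02 for SPRED1, and IL17RD, at 10.1 CPM in ca_fgfr1 replicate 1, lay there below every control. Of 10 hindbrain markers, 6 matched a row and all 6 were detected, with summed levels of 1236 to 1759.6 CPM in ca_fgfr1 and 1521 to 1699.6 CPM in controls. Most of each sum was SOX3, at 821 to 1231 CPM, so the sums say little about the other markers. In control replicate 1, NEUROD4 (57.8 CPM) and neurog1 (54.0 CPM) lay below the other controls (197 to 217 and 85.7 to 113 CPM). Among the controls SOX3, hoxa2b and hoxb1a were highest in replicate 1, and SOX2 lay inside the range of the others.

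The members together took 2.98, 4.14, 3.97 and 4.18% of all counts in ca_fgfr1 replicates 1 to 4, against 5.17, 3.12, 2.85 and 2.96% in control replicates 1 to 4. The highest share was in control replicate 1 and the lowest in control replicate 3, so the ca_fgfr1 range lay inside that of the controls. Their means were 3.82 ± 0.566% in ca_fgfr1 and 3.53 ± 1.099% in controls (SD, n = 4 each), a difference of 0.289 percentage points that was smaller than either spread. That reading rested on control replicate 1. Without it the controls averaged 2.98 ± 0.137% (SD, n = 3), and the difference was 0.836 percentage points, larger than either spread, with ca_fgfr1 replicate 1 still inside the range of those controls. Counting error was small beside these differences, since the 95% Wilson interval of a share reached at most 0.0120 percentage points to either side. The interval covers counting error only, and reads amplified from the same molecule are not independent. In such bulk samples, fewer cells of a type and less RNA per cell cannot be told apart.

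**Figure D1:**
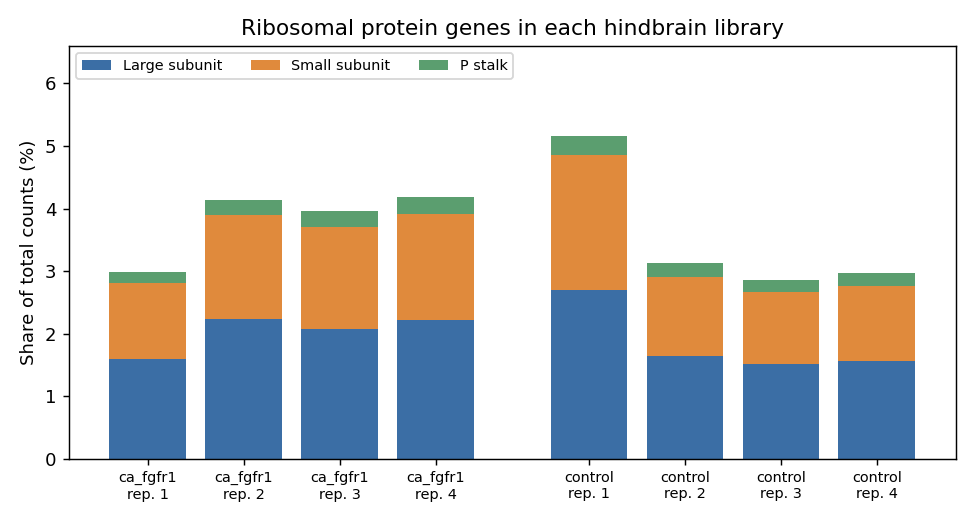
Share of all counts, in percent, taken by members of the large subunit, the small subunit and the P stalk in each library, with the 4 ca_fgfr1 libraries on the left and the 4 controls on the right. Control replicate 1 stands at 5.17%, and ca_fgfr1 replicate 1, at 2.98%, lies with control replicates 2 to 4.

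The subunits kept a similar proportion, with control replicate 1 apart from the other controls. Small subunit members took 1.21, 1.67, 1.63 and 1.70% of counts in ca_fgfr1 replicates 1 to 4, against 2.17, 1.26, 1.15 and 1.19% in control replicates 1 to 4. Large subunit members took 1.59, 2.23, 2.08 and 2.22% in ca_fgfr1, against 2.69, 1.65, 1.51 and 1.57% in controls. The ratio of small to large subunit counts was 0.762, 0.750, 0.785 and 0.769 in ca_fgfr1, against 0.805, 0.768, 0.764 and 0.761 in controls. Control replicate 1 again had the highest value, and the group means of 0.766 ± 0.0145 and 0.774 ± 0.0204 differed by less than their spread. P stalk members took 0.174 to 0.266% of counts in ca_fgfr1 and 0.194 to 0.307% in controls.

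Members moved together from library to library. Each member's log2 CPM (CPM are counts scaled to a common library size) was set against its own mean over the 8 libraries. The median of these deviations was -0.29, 0.37, 0.12 and 0.24 in ca_fgfr1 replicates 1 to 4, against 0.98, -0.31, -0.55 and -0.61 in control replicates 1 to 4. In ca_fgfr1 replicate 1, 0 of the 83 members lay above their own mean, and in ca_fgfr1 replicates 2, 3 and 4 there were 80, 78 and 82. In control replicate 1 there were 76, and in control replicates 2, 3 and 4 only 2, 1 and 2. Over all 18075 tested genes, between 48.9 and 52.8% lay above their own mean in each library. Libraries therefore differed for the members as a block, within both groups.

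Of the members' squared deviations, 80.5% lay in their common movement between libraries, where 100% would mean an identical movement of every member. The value was 80.1% when deviations were taken from each group's own mean and 87.1% without control replicate 1. It was 0.431% over all tested genes, which the scaling itself centres near 0. Small and large subunit members gave 81.6 and 81.0%. High values were not particular to the members, since 73 mitochondrial ribosomal protein genes gave 78.3%. The measure rises as a list gets shorter, even for unrelated genes, so the following values cannot be set against that of the members. Short marker lists, of 2 to 7 tested genes, gave 87.9% (blood), 76.5% (vasculature), 69.6% (epidermis), 68.2% (muscle), 50.4% (neural crest) and 17.5% (hindbrain). Within a library the members spread little around each other, with an SD of 0.0849 to 0.141 log2 units in ca_fgfr1 and 0.153 to 0.205 in control replicates 2 to 4. Control replicate 1 was the exception, with an SD of 0.497.

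**Figure D2:**
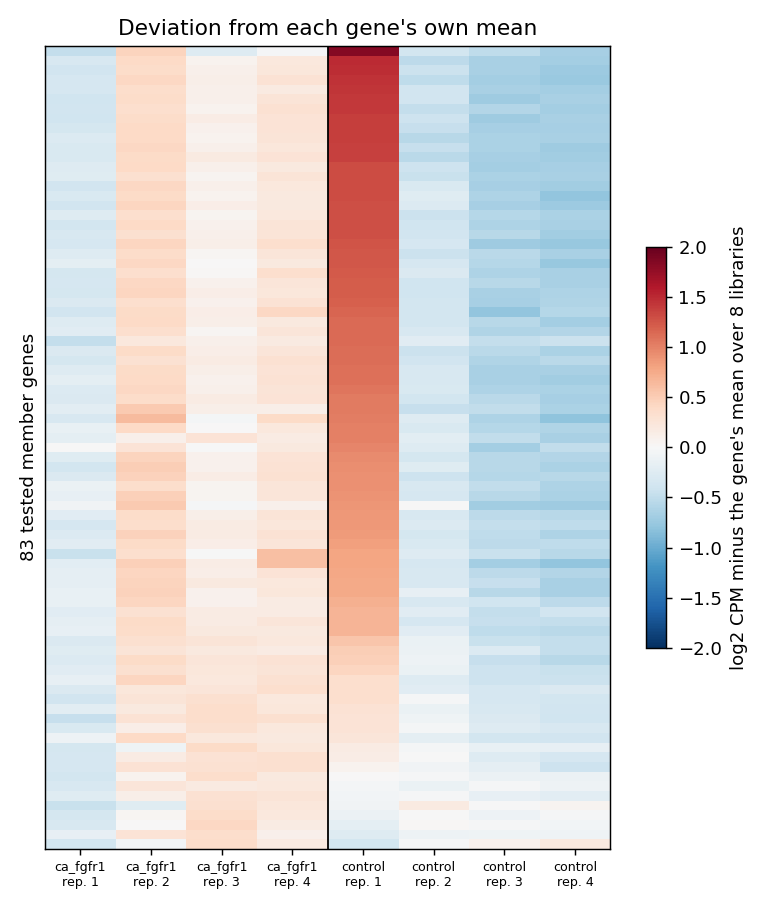
Deviation of each of the 83 tested members (rows) from its own mean, in log2 CPM, in the 4 ca_fgfr1 libraries (left) and the 4 controls (right), ordered by the deviation in control replicate 1. Control replicate 1 runs from 1.84 at the top to -0.37 at the bottom, and control replicates 2 to 4 are below 0 over most rows (down to -0.80 in control replicate 4) and near 0 at the bottom.

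The following orders were chosen after the values were seen. For 66 of 83 members, control replicate 1 held the highest level of the 8 libraries, as it did for 26.9% of all tested genes. ca_fgfr1 replicates 2 to 4 all lay above ca_fgfr1 replicate 1 for 83 of 83 members (28.5% of all genes). They also all lay above control replicates 2 to 4 for 78 of 83 (18.6% of all genes). With ca_fgfr1 replicate 1 included, all 4 ca_fgfr1 libraries lay above control replicates 2 to 4 for 49 members (12.5% of all genes). Control replicate 2 was the highest of control replicates 2 to 4 for 80 members (40.8% of all genes).

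Members differed in how far control replicate 1 stood apart. Its level over the mean of control replicates 2 to 4 had a median of 2.71-fold, from 0.730-fold to 5.08-fold, against a median of 0.948-fold over all tested genes. The fold was 3 or more for 34 members (4.24% of all genes reached it), between 2 and 3 for 27, between 1 and 2 for 17, and under 1 for 5. The top band held 16 small subunit, 16 large subunit and 2 P stalk members, led by rps27l (5.08-fold), RPL37 (4.31-fold), RPS29 (4.23-fold), RPL36 (4.18-fold) and RPS21 (4.00-fold). The bottom band held RPL3 (0.730-fold), RPS4Y2 (0.885-fold), RPL4 (0.887-fold), RPLP0 (0.909-fold) and RPS2 (0.951-fold).

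The bands were formed from the controls, so their deviations in the controls restate that choice. Each gene's deviations balance out over all libraries, so those in ca_fgfr1 are not free of that choice either. In the top band the median deviation was 1.29 in control replicate 1 and -0.39 to -0.66 in control replicates 2 to 4. In the bottom band it was -0.20 in control replicate 1 and -0.02 to -0.01 in control replicates 2 to 4. The bands were closer in ca_fgfr1 replicate 1, at -0.33 in the top band and -0.36 in the bottom band. In ca_fgfr1 replicate 2 the top band was at 0.39 and the bottom band at 0.00, while in ca_fgfr1 replicate 3 the top band was at 0.10 and the bottom band at 0.37.

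Some other measures also had an extreme value in control replicate 1, and others did not. Epidermal markers (7 of 7 detected in every library, none at 0) summed to 7638 to 15057 CPM in ca_fgfr1 and 9607 to 27280.2 CPM in controls, with the highest sum in control replicate 1 and the lowest in ca_fgfr1 replicate 1. Blood markers (5 of 7 matched a row) summed to 3.35 to 159.5 CPM in ca_fgfr1 and 3.93 to 270.1 CPM in controls, lowest in ca_fgfr1 replicate 2 and control replicate 1, where gata1a, an erythroid transcription factor, was at 0. Neural crest markers (4 of 4 matched) summed to 98.2 to 145 CPM in ca_fgfr1 and 93.3 to 188 CPM in controls, and vascular markers (2 of 4 matched) to 17.9 to 29.6 CPM and 15.9 to 63.0 CPM, both lowest in control replicate 1. Muscle markers (3 of 5 matched) summed to 1.62 to 4.64 CPM in ca_fgfr1 and 1.97 to 144 CPM in controls, highest in control replicate 4, and myhz2, a muscle myosin, was at 0 in ca_fgfr1 replicate 4. Fgf response genes (10 of 13 matched a row) summed to 967 to 1797 CPM in ca_fgfr1 and 312 to 542 CPM in controls. The lowest sum was in control replicate 1, with 507 to 542 CPM in the other controls. Heat shock genes summed to 4505 to 8109 CPM in ca_fgfr1 and 4733 to 9215 CPM in controls, with control replicate 1 inside the range of the other libraries. Mitochondrially encoded genes took 0.793, 1.05, 1.01 and 1.35% of counts in ca_fgfr1 replicates 1 to 4, against 1.32, 1.12, 0.712 and 0.717% in control replicates 1 to 4. The part of these differences in the ribosomal protein levels was not tested.

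The study set ca_fgfr1 against control hindbrains to find genes that respond to Fgf receptor activation, and here the comparison was read for the ribosomal protein genes. By the study's criteria (adjusted p of 0.01 or less, a fold of at least 2 and more than 30 normalised counts), edgeR's quasi-likelihood test called 0 of 83 members, against 0.0166% of all tested genes. The study itself applied these thresholds to DESeq2, a different test, whose counts at other thresholds follow. At an adjusted p of 0.05 or less it called 0 members (0.0498% of all genes). At an unadjusted p under 0.05 it found 0 members higher (2.14% of all genes) and 0 lower (3.21%), and DESeq2, which gave no p for rps27l, also found 0 at an adjusted p of 0.05 or less (0.433% of all genes with an adjusted p) and 0 at an unadjusted p under 0.05 (5.09% of all genes with a p). No member separated the groups without overlap in either direction, as 1.90% of all genes did with ca_fgfr1 higher and 1.44% with ca_fgfr1 lower. The smallest edgeR adjusted p of a member was 0.866.

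The fold changes were small. Log2 fold changes were above 0 for 56 members (67.5%, against 45.9% of all genes) and below 0 for 27, with a median of 0.10, quartiles of -0.04 and 0.19, and a range of -0.54 (rps27l) to 0.39 (RPL7L1). The median over all genes was -0.04. By class the medians were 0.08 for the small subunit, 0.14 for the large subunit and 0.02 for the P stalk. Their standard errors were 0.19 (RPL4) to 0.53 (rps27l), so changes of this size could not be told from 0 with these libraries.

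Without control replicate 1 the picture differed, and this library decided the count of small unadjusted p-values. It was the highest library for most members, so leaving it out had to raise their fold changes. Members also moved as a block, so the counts below are not so many separate results. With this library left out, edgeR found 66 of 83 members higher at an unadjusted p under 0.05 (13.0% of all 18493 genes then tested) and 0 lower (13.2%). At an adjusted p of 0.05 or less there were still 0 members (0.0703% of all genes), and the smallest adjusted p was 0.144, while 66 members and 5161 genes in all had one of 0.2 or less. The 7 libraries did not overlap for 45 members, all higher in ca_fgfr1 (11.2% of all genes), and for 0 with ca_fgfr1 lower (10.3%). Of the log2 fold changes, 81 of 83 were above 0 (50.3% of all genes), with a median of 0.63. DESeq2, which was run without single libraries after the data had been seen, found 46 members higher at an adjusted p of 0.05 or less (4.99% of all genes with an adjusted p) and 0 lower (4.93%), the smallest adjusted p being 0.0161. Without ca_fgfr1 replicate 1, in contrast, edgeR found 0 members at an unadjusted p under 0.05 (2.40% of all genes higher and 4.20% lower), 78 of 83 were above 0 (46.8% of all genes) and the median was 0.21.

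On a linear scale, the ca_fgfr1 mean over the mean of control replicates 2 to 4 had a median of 1.56-fold, with quartiles of 1.41 and 1.60 and a range of 0.950 to 1.83. The members that stood highest in control replicate 1 were also those with the larger values here: the median log2 fold change without that library was 0.67 in the top band, 0.61 and 0.38 in the middle bands and 0.10 in the bottom band. Both measures divide by control replicates 2 to 4, so they are not independent. With all 8 libraries the order of the same bands was -0.05, 0.15, 0.23 and 0.15.

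**Figure D3:**
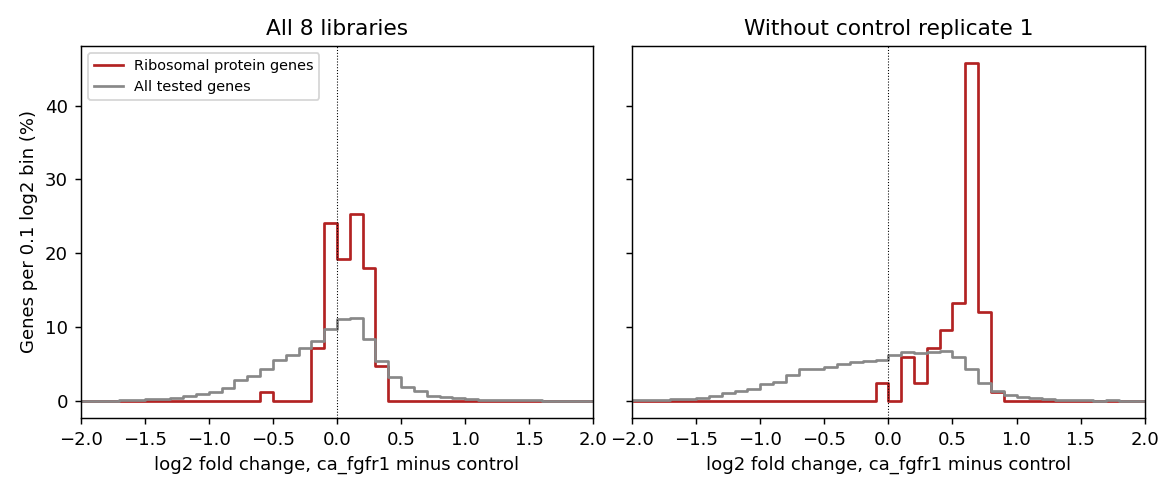
Distribution of log2 fold changes (ca_fgfr1 minus control, in bins of 0.1, as percent of genes) for the tested members and for all tested genes, from all 8 libraries (left) and without control replicate 1 (right). The member median is 0.10 with all libraries and 0.63 without control replicate 1, while the median of all genes is -0.04 and 0.01.

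Among small subunit members, RPS6, the ribosomal protein phosphorylated by S6 kinase downstream of mTOR, had the smallest p of all members. RPS6 had 579.6, 827, 723 and 719 CPM in ca_fgfr1 replicates 1 to 4, against 737, 548, 483 and 479 CPM in control replicates 1 to 4. Among the controls, replicate 1 lay within the ca_fgfr1 range and the others lay below them all. Its log2 fold change was 0.34 ± 0.22 SE (edgeR unadjusted p = 0.143, adjusted p = 0.866), and 0.49 ± 0.17 SE without control replicate 1. rps3, which lines the entry of the mRNA channel, had 266, 339, 386 and 376 CPM in ca_fgfr1 replicates 1 to 4, against 302, 308, 281 and 272 CPM in control replicates 1 to 4. ca_fgfr1 replicate 1 was the lowest of all libraries and the other ca_fgfr1 libraries were the highest (log2 fold change 0.23 ± 0.20 SE, edgeR adjusted p = 0.884). RPS13, another small subunit protein, had 258, 343, 381 and 350.4 CPM in ca_fgfr1 replicates 1 to 4, against 367, 274, 239 and 229 CPM in control replicates 1 to 4, with control replicate 1 second only to ca_fgfr1 replicate 3 (log2 fold change 0.26 ± 0.23 SE, edgeR adjusted p = 0.884).

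The small subunit member rps20 is located in the head of the subunit. It had 1147, 1958, 1636 and 1824 CPM in ca_fgfr1 replicates 1 to 4, against 4053, 1166, 925 and 966 CPM in control replicates 1 to 4. Every other library was far below control replicate 1, and rps20 averaged 1641 ± 355 CPM in ca_fgfr1 and 1778 ± 1521 CPM in controls (SD, n = 4 each). The log2 fold change of rps20 was -0.12 ± 0.46 SE with all libraries (edgeR adjusted p = 0.982) and 0.68 ± 0.20 SE without control replicate 1. RPS2, near the mRNA entry, did not share this pattern, at 1185, 1561, 1966 and 1748 CPM in ca_fgfr1 replicates 1 to 4, against 1396, 1503, 1406 and 1493 CPM in control replicates 1 to 4. Its controls were within a narrow range and its ca_fgfr1 libraries lay on both sides of them (log2 fold change 0.16 ± 0.20 SE, edgeR adjusted p = 0.930). RPS4Y2, whose symbol the table takes over from a human RPS4 gene, behaved likewise, at 581, 726, 965 and 813 CPM in ca_fgfr1 replicates 1 to 4, against 633, 735, 715 and 696 CPM in control replicates 1 to 4.

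Among large subunit members, RPL8, next to the peptidyl transferase centre, had 499, 753, 648 and 692 CPM in ca_fgfr1 replicates 1 to 4, against 712, 471, 422 and 415 CPM in control replicates 1 to 4. The ca_fgfr1 libraries lay above control replicates 2 to 4, and control replicate 1 lay among them (log2 fold change 0.36 ± 0.24 SE, edgeR adjusted p = 0.866). RPL4, which lines the exit tunnel for the new protein chain, had 513, 693, 731 and 615 CPM in ca_fgfr1 replicates 1 to 4, against 479, 537, 544 and 540.0 CPM in control replicates 1 to 4. Control replicate 1 was the lowest library, and ca_fgfr1 replicate 1 was the only ca_fgfr1 library within the range of the controls (log2 fold change 0.28 ± 0.19 SE, edgeR adjusted p = 0.870). RPL21, another large subunit protein, had 177, 272, 274 and 278 CPM in ca_fgfr1 replicates 1 to 4, against 233, 212, 197 and 167 CPM in control replicates 1 to 4. ca_fgfr1 replicate 1 alone lay with the lower controls (log2 fold change 0.31 ± 0.22 SE, edgeR adjusted p = 0.871).

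RPL3, which reaches towards the peptidyl transferase centre, had 1222, 1531, 2039 and 1795 CPM in ca_fgfr1 replicates 1 to 4, against 1226, 1551, 1675 and 1810.3 CPM in control replicates 1 to 4. It was the member lowest in control replicate 1 relative to the other controls, and its log2 fold change was 0.07 ± 0.22 SE with that library (edgeR adjusted p = 0.975) and -0.03 ± 0.19 SE without it. RPL19, which takes part in a bridge between the subunits, had 1355, 2065, 1596 and 1757 CPM in ca_fgfr1 replicates 1 to 4, against 2530.5, 1346, 1025 and 955 CPM in control replicates 1 to 4. The highest library was again control replicate 1 (log2 fold change 0.21 ± 0.31 SE, edgeR adjusted p = 0.939, and 0.60 ± 0.20 SE without control replicate 1).

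The P stalk recruits the elongation factors, with RPLP0 as its base and dimers of RPLP1 and rplp2 as its arms. Base and arms differed in their pattern over libraries. RPLP0 had 670.1, 772, 1145 and 1079 CPM in ca_fgfr1 replicates 1 to 4, against 877, 1035, 911 and 949 CPM in control replicates 1 to 4, with ca_fgfr1 replicates 1 and 2 the lowest libraries. RPLP1 had 675, 1140.3, 923 and 1033 CPM in ca_fgfr1 replicates 1 to 4, against 2119.9, 661, 566 and 552 CPM in control replicates 1 to 4, and control replicate 1 was the highest of all. The log2 fold change without control replicate 1 was -0.08 ± 0.21 SE for RPLP0, 0.66 ± 0.20 SE for RPLP1 and 0.73 ± 0.22 SE for rplp2. With all libraries it was -0.04 ± 0.22 SE, -0.05 ± 0.43 SE and 0.08 ± 0.41 SE (edgeR adjusted p = 0.987, 0.993 and 0.987). The P stalk members shared 68.1% of their squared deviations, the lowest value of the 3 classes. With only 4 genes this value is raised by the shortness of the list, so the classes are not closely comparable.

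Members with relative-like names mostly moved with the rest. RPL7L1, a relative of RPL7 whose counterpart in yeast acts in large subunit assembly, had 211, 339, 269.7 and 369 CPM in ca_fgfr1 replicates 1 to 4, against 421, 193, 153 and 142 CPM in control replicates 1 to 4. Its highest library was control replicate 1 and the next ca_fgfr1 replicate 4 (log2 fold change 0.39 ± 0.36 SE, edgeR adjusted p = 0.892, and 0.86 ± 0.22 SE without control replicate 1). rps27l, a relative of rps27 that p53 induces in human cells, had 48.5, 91.6, 56.0 and 66.5 CPM in ca_fgfr1 replicates 1 to 4, against 241, 52.3, 47.1 and 42.6 CPM in control replicates 1 to 4. Control replicate 1 held more than any other library, and its fold change changed sign without that library, at -0.54 ± 0.53 SE with it and 0.46 ± 0.23 SE without it (edgeR adjusted p = 0.902 with all libraries). RPL22L1, the paralogue of RPL22, had 52.9, 103, 64.5 and 86.7 CPM in ca_fgfr1 replicates 1 to 4, against 135, 55.4, 43.4 and 38.2 CPM in control replicates 1 to 4, with ca_fgfr1 replicate 2 the highest of its group and control replicate 1 above it.

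RPL36AL, by its name a relative of RPL36A, had 210.0, 312, 260.3 and 299 CPM in ca_fgfr1 replicates 1 to 4, against 619, 183, 161 and 159.6 CPM in control replicates 1 to 4. No row was named RPL36A, so this row may stand for that protein itself. rps19bp1, which encodes a partner of RPS19 rather than a subunit, averaged 137 ± 27.2 CPM in ca_fgfr1 and 126 ± 72.2 CPM in controls (SD, n = 4 each). Both were highest in control replicate 1. Their log2 fold changes were -0.05 ± 0.43 SE for RPL36AL and 0.13 ± 0.35 SE for rps19bp1 (edgeR adjusted p = 0.992 and 0.974).

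Duplicated members allowed paralogues to be set against each other within a library, where depth and scaling cancel. The counting program, RSEM, shares out reads that fit both copies, so the level of each copy is uncertain. RPS26 ENSDARG00000037071 over RPS26 ENSDARG00000030408, a protein near the mRNA exit of the small subunit, had a ratio of 1.42, 1.23, 1.26 and 1.14 in ca_fgfr1 replicates 1 to 4, against 2.31, 1.11, 1.09 and 1.02 in control replicates 1 to 4. Control replicate 1 lay above the range of the other 7 libraries. There RPS26 ENSDARG00000037071 was 2.72-fold and RPS26 ENSDARG00000030408 1.26-fold the mean of control replicates 2 to 4.

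The levels behind these ratios were as follows. RPS26 ENSDARG00000037071 had 141, 173, 195 and 179 CPM in ca_fgfr1, against 322, 139, 115 and 102 CPM in controls, and RPS26 ENSDARG00000030408 had 99.5, 141, 154 and 158 CPM in ca_fgfr1, against 139, 125, 106 and 100.2 CPM in controls. Control replicate 1 was the highest library for ENSDARG00000037071 but lay below ca_fgfr1 replicates 2 to 4 for ENSDARG00000030408. Neither copy passed the test (edgeR adjusted p = 0.995 and 0.900).

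The stalk pair rplp2 over rplp2l had a ratio of 0.492, 0.554, 0.484 and 0.602 in ca_fgfr1 replicates 1 to 4, against 0.802, 0.447, 0.414 and 0.498 in control replicates 1 to 4. The ratio was again highest in control replicate 1. rplp2 had 120.3, 205, 172 and 209 CPM in ca_fgfr1, against 352, 121, 90.6 and 106 CPM in controls, and rplp2l had 244, 370.4, 356 and 346 CPM in ca_fgfr1, against 439, 271, 219 and 213 CPM in controls (log2 fold change 0.21 ± 0.27 SE, edgeR adjusted p = 0.931). For rps27l over rps27.1 the ratio was 0.104, 0.127, 0.0922 and 0.0952 in ca_fgfr1 replicates 1 to 4, against 0.183, 0.118, 0.130 and 0.113 in control replicates 1 to 4, and control replicate 1 was again the highest. The RPL5 pair, which with RPL11 carries 5S ribosomal RNA into the large subunit, stayed closer together: ENSDARG00000020197 over ENSDARG00000015862 was 1.07 in control replicate 1 and 0.867 to 0.981 in the others. rps27.1 over rps27.2 was 4.30 in control replicate 1 and 3.04 to 3.94 in the others. For RPL22L1 over RPL22, control replicate 1, at 0.264, lay within the range of the others (0.247 to 0.350). RPL7L1 over RPL7 averaged 0.326 ± 0.0433 in ca_fgfr1 and 0.269 ± 0.0160 in controls (SD, n = 4 each), with ca_fgfr1 replicate 1 inside the control range. In this pair control replicate 1 had the lowest ratio, at 0.252, with 0.261 to 0.385 in the others.

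**Figure D4:**
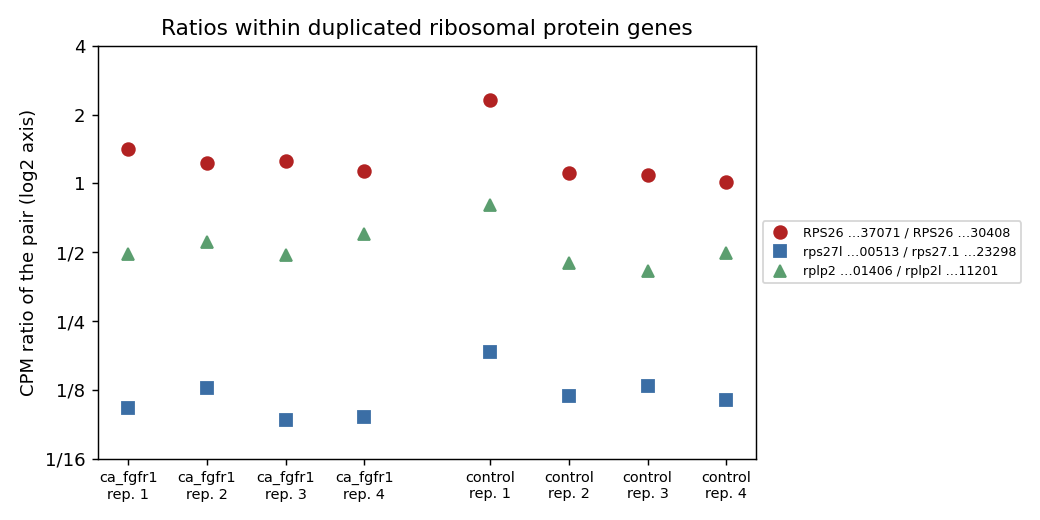
CPM ratio within 3 pairs of duplicated members in each library (log2 axis), with ca_fgfr1 libraries on the left and controls on the right. In control replicate 1 the ratios are 2.31 (RPS26 pair), 0.802 (rplp2 over rplp2l) and 0.183 (rps27l over rps27.1), above every other library.

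The levels of the RPL5 and rps27 rows moved with the block. RPL5 ENSDARG00000015862 had 289.5, 433, 339.6 and 359 CPM in ca_fgfr1, against 523, 258, 244 and 223 CPM in controls. RPL5 ENSDARG00000020197 had 271, 382, 309 and 352 CPM in ca_fgfr1, against 562, 239, 212 and 195 CPM in controls. In both of them control replicate 1 was the highest library and ca_fgfr1 replicate 1 the lowest of its group. Their log2 fold changes were 0.19 ± 0.29 SE and 0.12 ± 0.34 SE (edgeR adjusted p = 0.942 and 0.974). rps27.1 averaged 623 ± 115 CPM in ca_fgfr1 and 625 ± 462 CPM in controls (SD, n = 4 each), and rps27.2 averaged 168 ± 16.8 CPM in ca_fgfr1 and 161 ± 97.4 CPM in controls (SD, n = 4 each).

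Of the IDs for ribosomal proteins that the naming rule leaves out, RPSA2 and FAU moved like the members. RPSA2 (ENSDARG00000019181), which carries the name of a laminin-receptor-like small subunit protein, had 1313, 1794, 1586 and 1632 CPM in ca_fgfr1, against 2078, 1226, 1137 and 1129 CPM in controls. FAU, a fusion of a ubiquitin-like protein with RPS30, had 235, 369, 302 and 323 CPM in ca_fgfr1, against 581, 225, 187 and 169 CPM in controls. Control replicate 1 was the highest and ca_fgfr1 replicate 1 the lowest ca_fgfr1 library for both genes. faub, a low second copy of FAU, had 53.7, 78.6, 66.5 and 34.2 CPM in ca_fgfr1, against 75.4, 44.4, 18.8 and 42.5 CPM in controls, with ca_fgfr1 replicate 2 the highest library. RACK1, a scaffold protein bound to the small subunit, had 585, 876, 746 and 776 CPM in ca_fgfr1, against 763, 556, 534 and 513 CPM in controls, with control replicate 1 among the ca_fgfr1 libraries.

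Other lists of the translation machinery were set beside the members. Mitochondrial ribosomal proteins, which build the separate ribosome of mitochondria, had median deviations of -0.15, 0.39, 0.08 and 0.30 in ca_fgfr1 replicates 1 to 4, against 0.77, -0.15, -0.57 and -0.62 in control replicates 1 to 4. Their order of libraries resembled that of the cytosolic members, and 78.3% of their squared deviations were shared. Of 73 tested, 65 had a log2 fold change above 0 (45.9% of all genes), 1 of them at an unadjusted p under 0.05 (2.14% of all genes), with a median of 0.20. Without control replicate 1, 58 were higher (13.0% of all genes) and 0 lower (13.2%) at an unadjusted p under 0.05, with a median of 0.59, and without ca_fgfr1 replicate 1, 3 were higher (2.40% of all genes). As for the cytosolic members, control replicate 1 had their highest median and the genes moved together, so these counts are not separate results.

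The lists named for elongation and initiation moved together less. Beside elongation factors, the first also held chain-folding genes and others, such as pabpc1b, named for a poly(A)-binding protein. The initiation list also held EIF4EBP2 and other genes named for eIF4E-binding proteins. The elongation list shared 22.0% of its squared deviations and the initiation list 37.1%. At an unadjusted edgeR p under 0.05, 1 of 15 genes of the elongation list was higher (2.14% of all genes) and 1, pabpc1b, lower (3.21%). Of 21 genes in the initiation list, 0 were either. Without control replicate 1, 7 genes of the elongation list were higher and 2 lower (median log2 fold change 0.47). In the initiation list 8 were then higher and 0 lower (median 0.34), against 13.0% of all genes higher and 13.2% lower. EEF1B2, a subunit of the exchange factor for eEF1A, followed the members with 404, 664, 529 and 551 CPM in ca_fgfr1, against 896, 392, 301 and 289.5 CPM in controls. The same held for TPT1, a message with a pyrimidine-rich start in mammals, at 972, 1559, 1265 and 1345 CPM in ca_fgfr1, against 2134, 928, 773 and 760.1 CPM in controls. eef1a1l1, which encodes eEF1A itself, did not, at 1911, 2053, 3279.7 and 2799 CPM in ca_fgfr1, against 2055, 2579.6, 2965 and 3099 CPM in controls. eef2b, an elongation factor eEF2 gene, was at 684, 666, 1092 and 991 CPM in ca_fgfr1, against 630.0, 884, 1255 and 1201 CPM in controls, with control replicate 1 the lowest library.

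Ribosome biogenesis genes, whose products help to make ribosomal RNA, process it or assemble the subunits, peaked in ca_fgfr1 replicate 4, unlike the ribosomal proteins. Their median deviation was -0.17, 0.09, 0.14 and 0.55 in ca_fgfr1 replicates 1 to 4, against -0.07, -0.09, -0.19 and -0.25 in control replicates 1 to 4. The controls fell in the same order as for the members, without the peak in replicate 1. In both lists ca_fgfr1 replicate 1 was the lowest of its group. Of 33 tested, 26 had a log2 fold change above 0 (45.9% of all genes), 5 of them at an unadjusted p under 0.05 (2.14% of all genes), with 0 at an adjusted p of 0.05 or less and a median of 0.26. The count depended on single libraries: it was 13 higher and 1 lower without control replicate 1 (13.0 and 13.2% of all genes), and 9 higher and 0 lower without ca_fgfr1 replicate 1 (2.40 and 4.20% of all genes). DKC1, the pseudouridine synthase of ribosomal RNA, had 492, 739, 676 and 899 CPM in ca_fgfr1, against 569, 462, 393 and 368 CPM in controls. Only ca_fgfr1 replicate 1 lay within the control range (log2 fold change 0.65 ± 0.24 SE, edgeR adjusted p = 0.866). npm1a, a nucleolar chaperone, had 855, 1389, 1131 and 1747 CPM in ca_fgfr1, against 1025, 953, 637 and 667 CPM in controls (log2 fold change 0.64 ± 0.27 SE, edgeR adjusted p = 0.866).

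**Figure D5:**
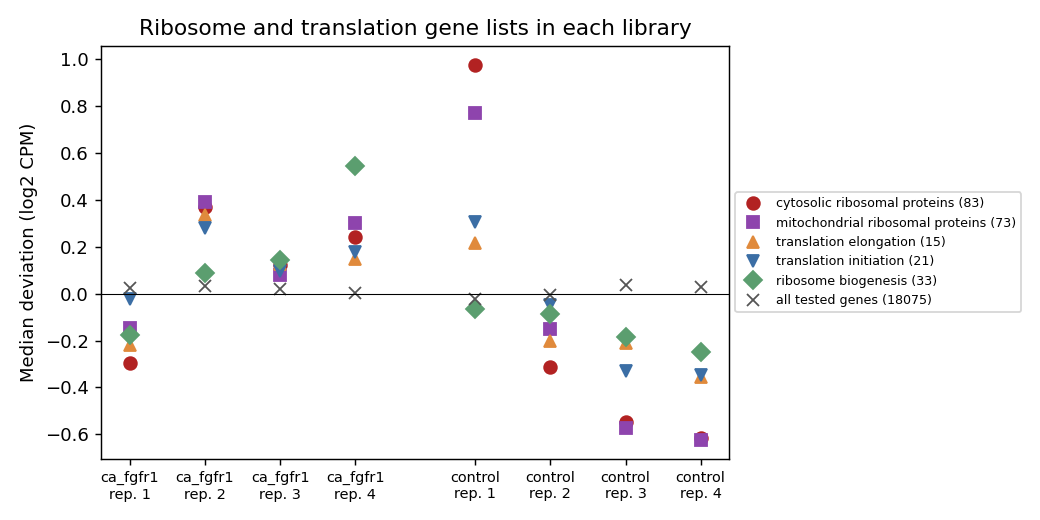
Median deviation in log2 CPM from each gene's own mean, for the ribosomal protein genes, 4 other lists and all tested genes (number tested in brackets), in ca_fgfr1 libraries (left) and controls (right). Cytosolic and mitochondrial ribosomal proteins peak in control replicate 1 (0.98 and 0.77), whereas ribosome biogenesis genes peak in ca_fgfr1 replicate 4 (0.55).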

How the data were processed

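RNA of 8 single hindbrains was amplified with SMARTer chemistry and sequenced as single-end reads. Per the submitters' processing notes, reads were aligned with STAR 2.5.1b and counted with RSEM 1.2.31 on GRCz10. The deposited values are expected counts from RSEM, which the authors rounded and left unscaled for depth. Columns named C were taken as control and those named F as ca_fgfr1, a reading of the letters, and 0 columns were left unused. Use of strand was not given in the sources used here, so antisense genes are uncertain.

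The test was edgeR 4.0.16 under R 4.3.3, without covariates and as ca_fgfr1 minus control (filterByExpr, which kept 18075 genes, TMM scaling, glmQLFit and glmQLFTest), and Benjamini-Hochberg adjustment ran over all tested genes. CPM are relative to the TMM-scaled total, deviations use log2 CPM with a prior count of 2, and SE is the absolute log2 fold change over the square root of F. The common biological coefficient of variation was 0.398. Libraries held 13173019 to 20541155 counts. The labels do not say that libraries of a group came from separate clutches, so p-values measure the spread between these single hindbrains. Shares, ratios and deviations over members were given no test. A name table gave symbols for 26350 of the 32189 IDs (81.9%). No transcript lengths were used, so levels were not compared between genes.

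Members and lists were chosen with earlier results of these data known. Any member could be named, and full values were given for the 6 smallest p-values, the 3 highest and 3 lowest members by CPM, the P stalk, relative-like names and duplicates, apart from a few genes that are not reported here. RPS2, RPS4Y2 and members of the bands by control replicate 1 were singled out after their values were seen. Of other genes, only those of the lists were named. Alternatives were other scaling factors (relative log expression, upper quartile, library totals), other filters, DESeq2 1.42.0, limma-voom 3.58.1, a replicate block, subsets of members and leaving out each library. The steps were tested on simulated counts.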

Additional observations from a re-analysis of the deposited data

Results flagged for a closer look

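In groups of 4 libraries, a value was picked out when its gap to the nearest other library took up most of the group's range by Dixon's criterion, which chance alone meets in about 1 in 20 groups. Of 54 groups examined, 14 had such a value, and most came from 1 library. In control replicate 1 the members took 5.17% of all counts (the other controls 2.85 to 3.12%), and the ratio of small to large subunit counts was 0.805 (the others 0.761 to 0.768). The same library stood high for rps20 (4053 CPM), RPLP1 (2120 CPM), rps27.1 (1315 CPM), RPL36AL (619 CPM), RPL5 ENSDARG00000020197 (562 CPM) and RPL5 ENSDARG00000015862 (523 CPM). It also stood high for rplp2 (352 CPM), RPS26 ENSDARG00000037071 (322 CPM), rps27.2 (306 CPM) and rps27l (241 CPM). It stood low for RPL4, at 479 CPM, with 537 to 544 CPM in the other controls. In ca_fgfr1 replicate 1, RPL21 (177 CPM, with 272 to 278 CPM in the others of its group) stood low. Over all 83 tested members, 3 had such a library among the ca_fgfr1 libraries (5.99% of all tested genes) and 58 among the controls (9.84%). These genes share their libraries and are not independent.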

How the results depend on the processing

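Across alternatives, 356 of 362 values kept their direction and their side of the threshold or moved by less than the spread between replicates. That spread included control replicate 1 (control SD 0.746 for the median deviation and 1.099 for the share). The moves of the median log2 fold change and of the share difference given below therefore counted as kept, as did counts of 0 that stayed 0. The tally does not measure how far the results rest on that library. The others all left out control replicate 1. Without it, edgeR found 66 members higher at an unadjusted p under 0.05 and DESeq2 also 66, DESeq2 found 46 at an adjusted p of 0.05 or less, the log2 fold change of rps27l became 0.46 (edgeR) and 0.47 (DESeq2), against -0.78 to -0.42 (edgeR) and -0.80 to -0.44 (DESeq2) without another library, and RPL7L1 reached 0.87 with a DESeq2 adjusted p of 0.0188. That library was left out, so 4 libraries were set against 3. Leaving out single libraries moved the median log2 fold change of the members between -0.06 and 0.63, and it was below 0 without control replicate 3 or 4. It moved the difference in share between 0.0645 and 0.836 percentage points, the shared variation between 78.9 and 87.1%, and the difference in the ratio of small to large subunit between -0.0139 and 0.00230. Other settings gave a median of 0.07 to 0.26. With library totals in place of TMM, the shared variation was 67.5%. DESeq2 without single libraries, shared variation without single libraries and the addition of the IDs outside the rule were chosen after the data had been seen.

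Libraries that share a replicate number were not treated as pairs, since across tested genes their deviations correlated at -0.293 (number 1), -0.0132 (2), 0.220 (3) and 0.194 (4). A fit with the replicate block called 0 members and gave a median log2 fold change of 0.26. Depth was not the limit for these abundant messages, whereas the spread among 4 libraries was.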

Other observations

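Genes of the growth signalling pathways that act on ribosomal protein messages were also measured. Of 10 tested, 5 had a log2 fold change above 0 and 5 below 0, none at an unadjusted edgeR p under 0.05 (2.14% of all genes higher and 3.21% lower). Without control replicate 1, 2 were lower and 0 higher at that p (13.2 and 13.0% of all genes), and without ca_fgfr1 replicate 1, 1 was higher and 0 lower (2.40 and 4.20%). MTOR, the kinase that promotes translation of ribosomal protein messages, had 32.6, 20.7, 24.5 and 26.5 CPM in ca_fgfr1, against 14.0, 28.6, 80.8 and 62.8 CPM in controls. Control replicate 1, the library with the highest ribosomal protein share, had the lowest MTOR level. Control replicates 3 and 4, with the lowest shares, had the highest. HEATR1, of the ribosome biogenesis list, had the same order in the controls, at 17.4, 31.6, 93.8 and 82.5 CPM. Over all tested genes, control replicate 1 had the widest quartiles of deviation, at -0.54 and 0.56. A link between MTOR and ribosomal protein levels was not tested. LARP1, which in mammals binds the pyrimidine-rich start of these messages, had 7.11, 3.59, 8.44 and 12.8 CPM in ca_fgfr1, against 2.25, 6.75, 9.44 and 10.9 CPM in controls, and was also lowest in control replicate 1. MYCN, a transcription factor that drives ribosome production, had 206, 289, 299 and 425 CPM in ca_fgfr1, against 199, 259.8, 221 and 186 CPM in controls (log2 fold change 0.49 ± 0.25 SE, edgeR adjusted p = 0.866).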
